A study of Mus musculus with 6 samples.

Results

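The nuclear-encoded subunits of oxidative phosphorylation were examined in immortalized epicardium-derived cardiosphere cells (iECDCs) of the mouse before and after induction with 5-azacytidine. Members were the protein-coding genes outside the mitochondrial genome whose symbols begin with Nduf followed by a, b, c, s or v, with Uqcr, with Atp5 or with the names of the small Cox subunits, together with Sdha to Sdhd and Cyc1. The rule found 95 of the 54532 genes in the table, of which 22046 are protein-coding. By textbook role, 36 belong to complex I, 4 to complex II, 9 to complex III, 19 to complex IV and 17 to complex V, and 10 matches are not structural subunits (8 complex I assembly factors, the coupling factor Atp5s and the supercomplex factor Cox7a2l). Of the 19 complex IV genes, 8 were counted as tissue isoforms, among them the paralogue Ndufa4l2, and were kept apart.

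Total RNA was sequenced from 6 samples, 3 control and 3 induced, with 19041133 to 19823369 reads counted in genes per library. The cells are C57BL/6 cells from ventricular epicardium carrying a lentiviral hTERT (human telomerase) transgene, and all samples were at passage 30. Induced cells received 10 μM 5-azacytidine, an inhibitor of DNA methylation, for 3 days and then, by the labels, 4 weeks of culture in IMDM with 2% serum. The study's methods give another medium and a shorter time for that culture, and the culture time of the control cells is not given, so drug, serum and time in culture cannot be told apart. The study's methods speak of biological replicates but give a different number per condition from the samples deposited. Whether the 3 samples of a group were separate cultures is therefore unclear, and p-values measure the spread between these samples. Of the surface markers of these cells, Thy1, Eng and Ly6a were all detected (17.7 to 406 CPM, read counts scaled to the library size), while Ptprc had no read in any library and Pecam1, Kdr and Kit stayed at or below 0.531 CPM.

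Oxidative phosphorylation is the chain of enzymes in the inner mitochondrial membrane that makes ATP. Complexes I and II take electrons from NADH and succinate, complex III passes them to cytochrome c, complex IV gives them to oxygen, and complex V uses the proton gradient built by complexes I, III and IV to make ATP. In complexes I, III, IV and V the catalytic or redox sites lie in core subunits, and small accessory subunits surround them. All 4 subunits of complex II, with its membrane anchors Sdhc and Sdhd, were counted as core here. The core proteins Uqcrc1 and Uqcrc2 of complex III were also counted as core, so the class is wider than the catalytic subunits. Heart muscle depends heavily on this pathway, and some complex IV subunits have a second gene that is used in heart and skeletal muscle or in testis.

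A gene was called when the edgeR quasi-likelihood test gave a Benjamini-Hochberg adjusted p under 0.05 over all 14246 genes tested. Of the 95 members, 89 passed the filter on low counts and were tested. Of these, 48 (53.9%) were called, 25 higher and 23 lower in induced cells. Over all genes tested, 64.8% were called, with 32.6% higher and 32.2% lower. With this filter a call as such was therefore not more frequent among the members than among genes at large. Without the filter 54 of 93 members were called, against 38.0% of all genes with a read, so that comparison depends on the filter. The control and induced libraries did not overlap for 39 of the 89 members tested, against 9773 of the 14246 genes tested. Absence of overlap, given below for single genes, was thus not more frequent among the members. The median log2 fold change of the tested members was 0.02, and that of all genes tested was -0.01. The changes were small. At least 2-fold changes were called for 2 members (Ndufa4l2 and Cox6a2, both counted as tissue isoforms), against 17.1% of all genes tested. Outside the tissue isoforms the log2 fold changes ran from -0.64 (Ndufa12) to 0.62 (Ndufaf3, a complex I assembly factor).

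Core and accessory subunits were counted apart. Of the 23 core subunits, all tested, 11 were called and all 11 were lower, with a median log2 fold change of -0.15. Of the 53 accessory subunits tested, 21 were higher and 10 lower, with a median of 0.10. The difference between the 2 classes was not tested.

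**Figure D1:**
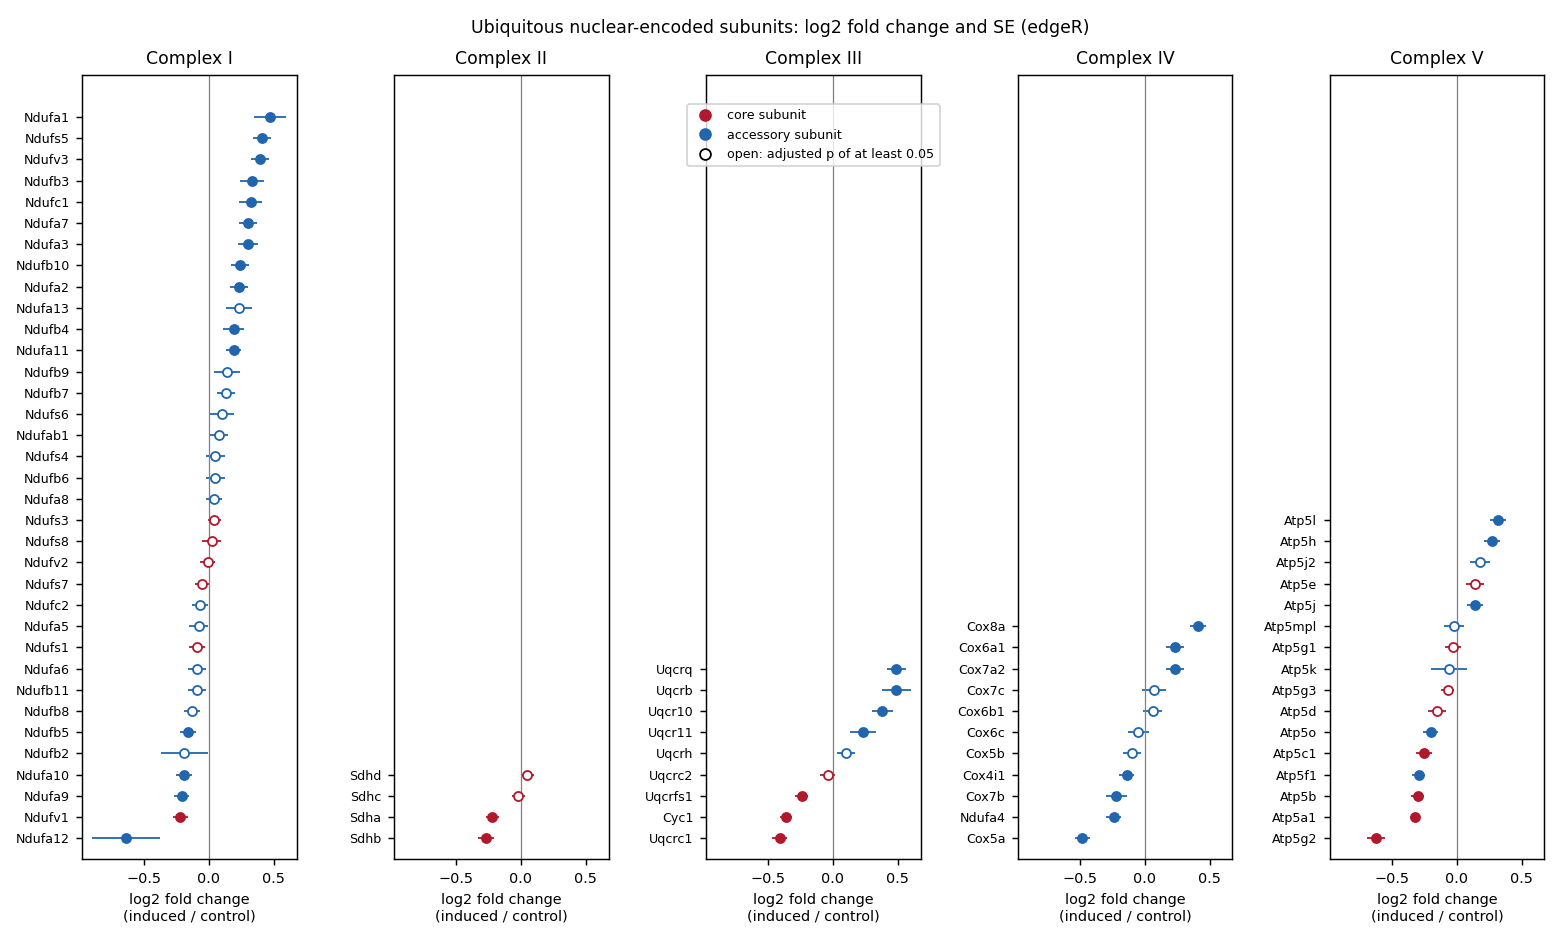
Each point is the log2 fold change (induced over control, horizontal axis) of a ubiquitous subunit with its standard error, in a panel per complex and sorted within it. Core subunits are red, accessory subunits blue, and open points had an adjusted p of at least 0.05. The filled core points all lie below 0, and the filled accessory points lie on both sides (21 above 0 and 10 below).

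The library of induced replicate 2 stood apart for these genes. It held the lowest level of the 3 induced libraries for 70 of the 76 ubiquitous subunits tested (92.1%) and the highest for 1. Over all genes tested it was the lowest for 36.9%, and over the 2103 tested genes no longer than the median subunit gene for 57.5%. The median level of the tested members against the control mean was 0.07 and 0.08 on the log2 scale in induced replicates 1 and 3, and -0.13 in induced replicate 2. Without this library 53 members were called, 35 higher and 18 lower, which changed the share of higher calls from 52.1% to 66.0%. Of the 48 calls, 43 were kept in the same direction, 5 were lost (Ndufb5, Ndufa12, Cox4i1, Cox7b and Ndufaf2, all lower) and 10 were gained, all of them higher. For the 23 core subunits the count was then 11 lower and 1 higher (Atp5e, log2 fold change 0.25), and for the accessory subunits 30 higher and 6 lower. The accessory median of 0.10 was then 0.20 and the complex I median of 0.05 was 0.12. Without induced replicate 1 these medians were 0.06 and 0.02, and without induced replicate 3 they were 0.04 and 0.02.

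**Figure D2:**
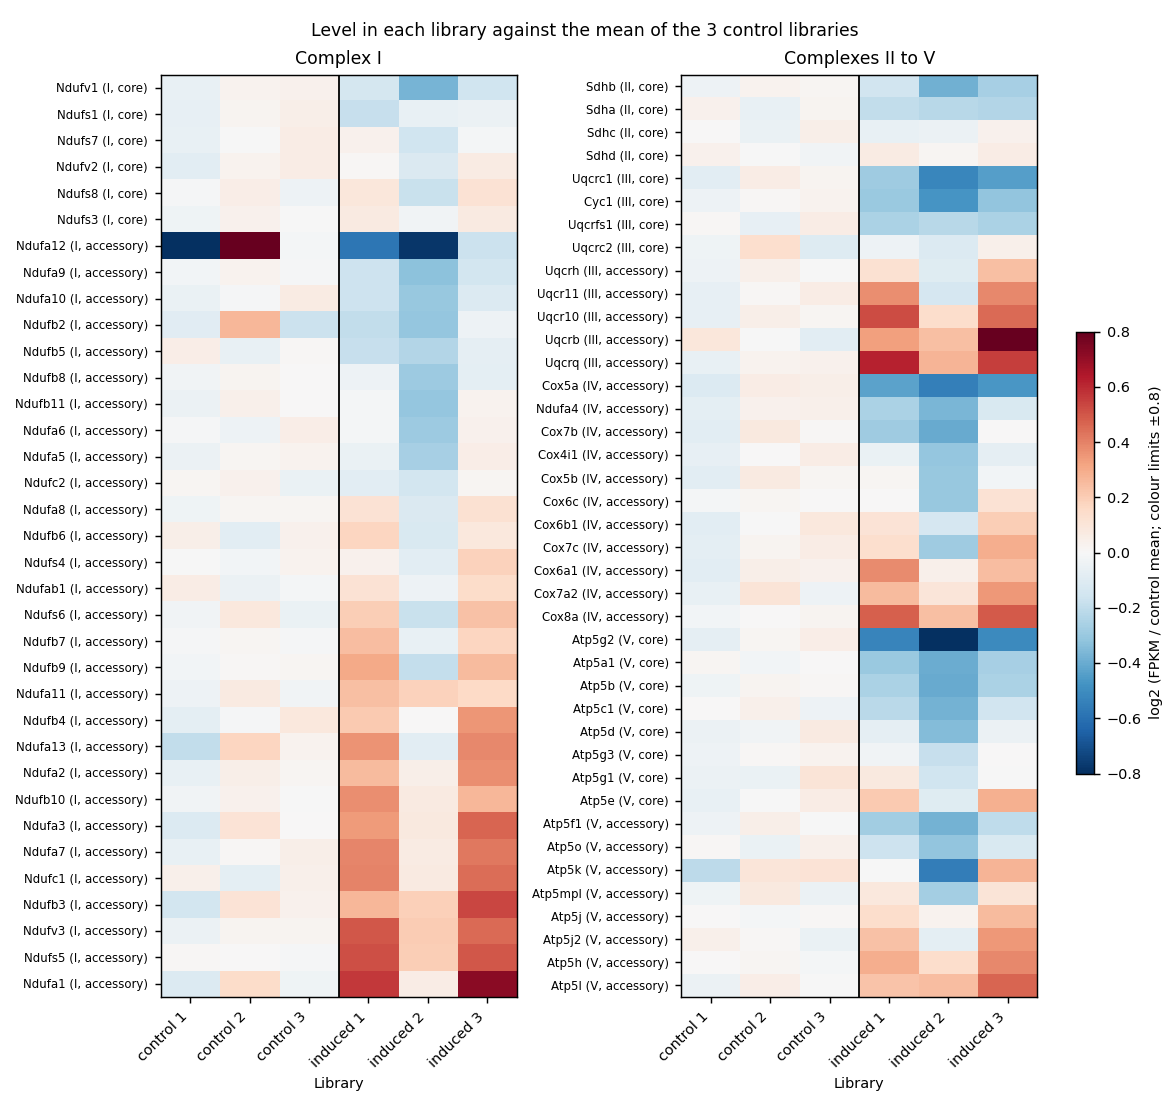
Rows are ubiquitous subunits tested and columns the 6 libraries, and the colour is the log2 level against the mean of the 3 control libraries (red higher, blue lower, limits ±0.8). The column of induced replicate 2 is bluer or less red than those of replicates 1 and 3 in most rows, and Ndufa12 differs between the control libraries themselves.

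Complex I oxidises NADH with a peripheral arm in the matrix, which holds the redox sites, and a membrane arm. Of its 36 nuclear subunits 17 were called, 11 higher and 6 lower (median log2 fold change 0.05). In the peripheral arm 3 of 16 were higher and 4 lower, and in the membrane arm 8 of 19 were higher and 2 lower. Levels below are FPKM, that is, TMM-scaled CPM per kilobase of gene length, given for control replicates 1, 2 and 3 and then for induced replicates 1, 2 and 3.

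Ndufv1, the subunit with the NADH and FMN site, stood at 47.1, 49.99 and 50.3 FPKM in control cells and at 44.6, 38.0 and 43.9 in induced cells. The groups did not overlap, and the log2 fold change was -0.22 ± 0.06 (SE, adjusted p = 0.00405). The core subunits Ndufs1, Ndufs3, Ndufs7, Ndufs8 and Ndufv2 had log2 fold changes between -0.09 and 0.04 and were not called. Ndufs3 shares 75.7% of its bases with a transcript of another gene, so its reads may have been divided in counting.

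Among the accessory subunits of complex I, the largest rise was that of Ndufa1, a small subunit of the membrane arm. Its values were 69.2, 82.7 and 73.0 FPKM in control cells and 111, 78.0 and 123 in induced cells. Induced replicate 2 lay inside the control range here, and the log2 fold change was 0.47 ± 0.12 (adjusted p = 0.00172). Ndufs5 rose from 57.7, 57.5 and 57.0 to 82.0, 65.9 and 80.9 FPKM, with all induced libraries above all control libraries (0.41 ± 0.07, adjusted p = 5.36e-05). A near-identical transcript of another gene covers 46.9% of the bases of Ndufs5. Ndufv3, an accessory subunit of the peripheral arm, rose from 38.2, 40.2 and 40.2 to 55.8, 45.5 and 54.2 FPKM (0.39 ± 0.07, adjusted p = 4.3e-05). The other 8 accessory subunits that were higher had log2 fold changes of 0.19 to 0.33. The 4 accessory subunits that were lower were Ndufa12, Ndufa9, Ndufa10 and Ndufb5.

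Ndufa12 had the largest fitted decrease of all members, but its control libraries differed widely from each other. It stood at 8.37, 26.8 and 14.7 FPKM in control cells and at 9.96, 8.68 and 13.2 in induced cells, so that the groups overlapped. The log2 fold change of -0.64 ± 0.26 (adjusted p = 0.0385) was -0.12 without control replicate 2 (adjusted p = 0.612). Ndufb2 was the lowest subunit of complex I at 0.678 FPKM in control cells, against a median of 39.2 FPKM over the complex. Its gene model of 5628 bases overlaps other genes over 7.9% of its bases.

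Complex I needs assembly factors that are not part of the finished enzyme. Of the 8 that the rule took in, 2 were higher and 2 lower. Ndufaf3 rose from 9.58, 8.59 and 8.34 to 14.8, 11.5 and 14.6 FPKM, with no overlap (0.62 ± 0.10, adjusted p = 2.17e-05). Ndufaf8 had values of 18.8, 15.3 and 15.7 in control cells and 23.9, 16.8 and 26.4 in induced cells, and induced replicate 2 lay within the control range (0.43 ± 0.13, adjusted p = 0.00868). Ndufaf6 (-0.46 ± 0.18, adjusted p = 0.0314) and Ndufaf2 (-0.33 ± 0.13, adjusted p = 0.0301) were lower. Ndufaf2 overlaps another gene over 65.6% of its bases.

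Complex II is succinate dehydrogenase, the enzyme shared with the citrate cycle, and is encoded entirely in the nucleus. Its catalytic subunits were lower and its membrane anchors were not called. The flavoprotein Sdha had 59.0, 55.2 and 58.4 FPKM in control cells and 50.1, 49.3 and 48.9 in induced cells (-0.22 ± 0.05, adjusted p = 0.000468). The iron-sulfur subunit Sdhb went from 30.3, 31.8 and 31.5 to 28.0, 23.9 and 25.9 (-0.27 ± 0.06, adjusted p = 0.000757). For both genes every induced library lay below every control library. The anchors Sdhc (43.5 ± 1.55 and 42.8 ± 1.52 FPKM, mean ± SD, n = 3) and Sdhd (82.2 ± 1.67 and 84.9 ± 1.54) had log2 fold changes of -0.02 ± 0.05 and 0.05 ± 0.05.

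In complex III, of 9 subunits tested, 4 were higher and 3 lower. Of its 4 core subunits 3 were lower, and of its 5 accessory subunits 4 were higher. Cyc1, the cytochrome c1 subunit, stood at 67.0, 69.6 and 70.5 FPKM in control cells and at 56.3, 49.8 and 55.5 in induced cells (-0.36 ± 0.05, adjusted p = 1.47e-05). Uqcrfs1, the Rieske iron-sulfur protein, went from 83.0, 78.9 and 85.9 to 69.3, 70.9 and 69.2 (-0.24 ± 0.05, adjusted p = 0.000463). Uqcrc1, a core protein, went from 43.2, 47.6 and 46.5 to 37.6, 31.8 and 33.7 (-0.41 ± 0.06, adjusted p = 8.08e-06). These 3 genes showed no overlap between the groups, whereas the other core protein, Uqcrc2, was not called (-0.04 ± 0.06, adjusted p = 0.601).

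Among the small subunits of complex III, Uqcrq rose from 62.8, 66.7 and 67.2 to 100.2, 79.3 and 96.2 FPKM (0.49 ± 0.07, adjusted p = 6.67e-06). Uqcrb rose from 43.9, 41.2 and 38.9 to 51.9, 48.8 and 73.5 (0.49 ± 0.11, adjusted p = 0.000696), with induced replicate 3 far above the other induced libraries. Near-identical transcripts of other genes cover 39.8% of its bases. Uqcr10 (0.38 ± 0.08) and Uqcr11 (0.23 ± 0.10) were also higher. Uqcrh was not called with all libraries (0.10 ± 0.07) and was called higher without induced replicate 2 (0.19, adjusted p = 0.000685).

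Complex IV, cytochrome c oxidase, has its catalytic core encoded in the mitochondrial genome, so all of its nuclear subunits are accessory here. Of the 11 ubiquitous ones 3 were higher (Cox8a, Cox7a2 and Cox6a1), 4 lower (Cox5a, Ndufa4, Cox7b and Cox4i1) and 4 not called. Cox5a, a subunit on the matrix side, had 33.2, 37.3 and 36.9 FPKM in control cells and 26.6, 24.5 and 25.9 in induced cells (-0.48 ± 0.06, adjusted p = 1.06e-06). Cox8a, a small membrane subunit, was the most abundant member per length and rose from 555, 565 and 573 to 788, 668 and 792 FPKM (0.41 ± 0.06, adjusted p = 5.47e-06). In both genes the groups did not overlap. The decrease of Cox4i1, the subunit that enters assembly early, was at the threshold (299 ± 13.2 against 271 ± 25.8 FPKM, -0.14 ± 0.06, adjusted p = 0.0452) and was not called without induced replicate 2 (adjusted p = 0.21) or in DESeq2 (adjusted p = 0.0768). Cox5b was not called (-0.10 ± 0.07), and a near-identical transcript of another gene covers 45.1% of its bases.

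Complex V is the ATP synthase, with a catalytic head, a ring of c subunits that turns in the membrane, and a stalk that holds the head in place. Of its 16 genes tested, 3 were higher and 6 lower (median -0.06), and the second gene model named Atp5o had no read and was not tested. The alpha, beta and gamma subunits of the head and its shaft were lower. Atp5b, the catalytic beta subunit, stood at 300.4, 313 and 309.8 FPKM in control cells and at 258, 233 and 258 in induced cells (-0.30 ± 0.05, adjusted p = 1.28e-05). Atp5a1, the alpha subunit, went from 248, 241 and 245 to 199, 185 and 204 (-0.32 ± 0.04, adjusted p = 5.48e-06). Atp5c1, the gamma subunit of the central shaft, went from 110.5, 113 and 107 to 95.04, 84.9 and 99.3 (-0.25 ± 0.06, adjusted p = 0.000891). None of the 3 overlapped between groups. The delta subunit Atp5d did not overlap either, but it narrowly missed the threshold (-0.15 ± 0.07, adjusted p = 0.0505). The epsilon subunit Atp5e was not called (0.14 ± 0.07).

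In the peripheral stalk Atp5f1 (-0.29 ± 0.05) and Atp5o (-0.20 ± 0.06) were lower, while Atp5h (0.27 ± 0.06) and Atp5j (0.14 ± 0.06) were higher. Atp5o shares 47.9% of its bases with overlapping genes. Near-identical transcripts of other genes cover 38.3% of the bases of Atp5o, 34.0% of Atp5h and 29.7% of Atp5j. Of the small membrane subunits, Atp5l was higher (0.32 ± 0.06, adjusted p = 0.00029) and Atp5j2, Atp5k and Atp5mpl were not called.

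The c subunit is made from 3 genes that encode the same mature protein behind different import sequences, and these genes did not move alike. Atp5g2 had 156, 166 and 171 FPKM in control cells and 114, 92.2 and 116 in induced cells (-0.62 ± 0.07, adjusted p = 2.97e-07). Atp5g3 had 113 ± 2.8 and 108 ± 7.44 FPKM (mean ± SD, n = 3) and Atp5g1 17.4 ± 1.07 and 17.1 ± 1.39, and neither was called. The share of Atp5g2 in the summed FPKM of the 3 genes was 55.7% ± 0.461 in control cells and 46.1% ± 1.38 in induced cells. The share of Atp5g3 went from 38.3% ± 0.502 to 46.5% ± 1.26 and that of Atp5g1 from 5.92% ± 0.24 to 7.39% ± 0.29. None of these shares overlapped between the groups. An exact permutation test of 3 against 3 libraries cannot go below p = 0.10, and none is given for shares.

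**Figure D3:**
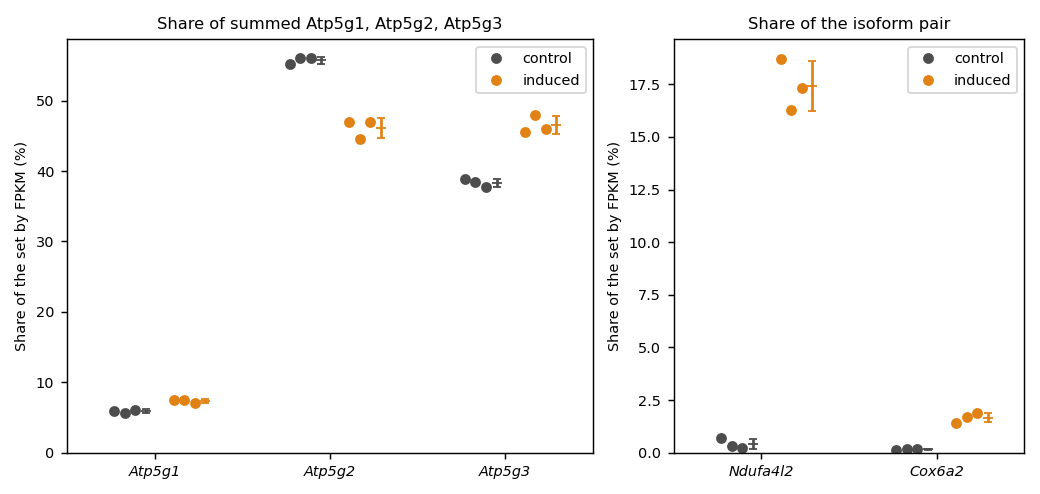
The left panel shows the share of each c subunit gene in the summed FPKM of Atp5g1, Atp5g2 and Atp5g3, and the right panel the share of Ndufa4l2 in Ndufa4 plus Ndufa4l2 and of Cox6a2 in Cox6a1 plus Cox6a2. Points are libraries, with mean and SD beside them, grey for control and orange for induced. Atp5g2 fell from 55.7% to 46.1% of its set and Ndufa4l2 went from 0.41% to 17.4% of its pair.

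The 8 tissue isoforms of complex IV were rare in control cells. Ndufa4l2, a paralogue of the complex IV subunit Ndufa4 known as a gene of the hypoxia response, had 12, 6 and 4 reads in the control libraries and 333, 264 and 336 in the induced libraries. Per length this was 0.339 ± 0.193 FPKM against 14.98 ± 1.99, a log2 fold change of 5.44 ± 0.23 (adjusted p = 2.94e-13), and the pooled ratio was 44.2 with an exact 95% interval of 29.0 to 70.9 that covers counting error only. The ubiquitous Ndufa4 fell over the same comparison, from 79.5, 85.9 and 86.3 to 70.4, 65.2 and 76.9 FPKM (-0.24 ± 0.06, adjusted p = 0.00197). Ndufa4l2 thereby made up 17.4% ± 1.19 of the pair in induced cells and 0.41% ± 0.252 in control cells. The gene lies on chromosome 10 (GRCm38) from 127514967 to 127517154, and 2.9% of its bases overlap Shmt2.

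Cox6a2, the heart and skeletal muscle isoform of subunit 6a, had 9, 11 and 13 reads in control cells and 113, 107 and 137 in induced cells. Its log2 fold change was 3.48 ± 0.23 (adjusted p = 2.74e-10), and the groups were far apart. Even so it reached 1.66% ± 0.218 of the pair with Cox6a1 in induced cells, against 0.174% ± 0.0241 in control cells, because Cox6a1 stood at 548 ± 63.7 FPKM. Of its bases 10.3% overlap Itgad.

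The other muscle isoforms stayed near the limit of detection. Cox7a1, the muscle form of subunit 7a, had 20, 13 and 10 reads and then 26, 18 and 14, and was not called (0.49 ± 0.37, adjusted p = 0.26). Cox8b, the muscle form of subunit 8, had no read in control cells and 3, 4 and 2 reads in induced cells. Cox4i2, the lung isoform of subunit 4, had 1, 0 and 1 reads and then 1, 8 and 8. Of the isoforms known from testis, Cox7b2 had no read in control cells and 2, 5 and 2 in induced cells, Cox6b2 had 13, 6 and 10 and then 8, 1 and 3, and Cox8c had none in any library. Apart from Cox7a1 these were too few reads to pass the filter, and no fold change is given for them.

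**Figure D4:**
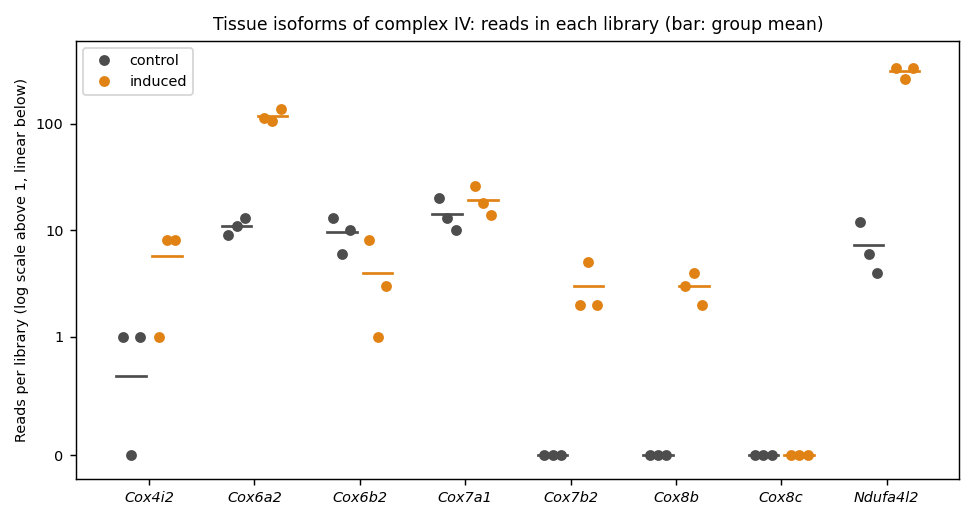
Reads in each library (vertical axis, logarithmic above 1 and linear below) are shown for the 8 tissue isoforms, grey for control and orange for induced libraries, with a bar at each group mean. Ndufa4l2 (264 to 336 reads) and Cox6a2 (107 to 137 reads) lie above 100 in every induced library, and the other 6 stay at 26 reads or fewer.

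Most of the markers listed here for muscle, germ and other cells were themselves close to 0. The genes of desmin and cTNT are not in these lists. The study stained for both proteins after 5-azacytidine and reported positive cells, few of them for cTNT. It also reported higher cardiomyocyte gene expression in induced cells. The 12 cardiomyocyte markers summed to 3.11 to 3.46 CPM in control cells and 5.03 to 6.89 in induced cells. Myl7 rose from 0 to 1.05 to 1.81 CPM. Tnni3 (1.45 to 2.25 CPM) and Tnnc1 (0.839 to 1.65 CPM) were detected in every library and were not called. Ryr2 had 1 read in the control libraries together and 29 in the induced ones, and Csrp3 had 12 and 24. Actn2, Nppa and Ttn reached at most 0.473 CPM, and Myh6, Myh7, Myl2 and Pln were at 0.158 CPM or less in every library. The 7 skeletal muscle markers summed to 0 to 0.101 CPM in control cells, and to 1.17, 8.52 and 0.105 CPM in induced replicates 1, 2 and 3, mostly from Acta1 (6.47 CPM in induced replicate 2). Without induced replicate 2 the log2 fold change of Cox6a2 was 3.56. The 6 brown fat markers summed to at most 0.957 CPM, the 4 endothelial markers to at most 0.943 CPM, and the 4 leukocyte markers had no read. The 7 germ cell markers summed to 1.47 to 2.55 CPM in control cells and 0.638 to 0.996 in induced cells. Ddx4 was the largest part in every library, with 106 reads in the control libraries together and 27 in the induced ones. Sycp3, Dazl, Tex101 and Ldhc went the other way, from 0 control reads to 10, 4, 3 and 1 induced reads. Prm1 had 3 and then 0, and Prm2 had 0 in both groups. In bulk RNA, more cells that use an isoform and more of its RNA per cell cannot be told apart.

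5-azacytidine is built into nucleic acids in place of cytidine and traps the enzymes that methylate CpG sites in DNA. The promoter windows (250 bases before to 50 after the start) of the isoforms detected in every induced library and in no control library are shown with those of their ubiquitous partners, from RefSeq on GRCm38.p6. Capitals mark CpG dinucleotides. The windows are Cox8a at chr19:7217567-7217866 (minus strand), Cox8b at chr7:140900397-140900696 (minus), Cox7b at chrX:106015450-106015749 (plus) and Cox7b2 at chr5:71548156-71548455 (minus).
Cox8a: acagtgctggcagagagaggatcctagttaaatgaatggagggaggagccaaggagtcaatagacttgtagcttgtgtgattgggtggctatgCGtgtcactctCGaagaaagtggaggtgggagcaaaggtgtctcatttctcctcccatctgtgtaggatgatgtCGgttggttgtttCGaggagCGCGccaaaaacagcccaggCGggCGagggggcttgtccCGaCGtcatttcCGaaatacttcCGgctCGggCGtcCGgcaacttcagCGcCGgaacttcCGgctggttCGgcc
Cox8b: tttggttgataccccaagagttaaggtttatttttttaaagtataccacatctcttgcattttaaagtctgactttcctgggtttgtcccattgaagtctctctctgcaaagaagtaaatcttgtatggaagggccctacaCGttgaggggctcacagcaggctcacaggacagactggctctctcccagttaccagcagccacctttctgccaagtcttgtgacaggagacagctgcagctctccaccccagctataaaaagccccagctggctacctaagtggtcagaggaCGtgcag
Cox7b: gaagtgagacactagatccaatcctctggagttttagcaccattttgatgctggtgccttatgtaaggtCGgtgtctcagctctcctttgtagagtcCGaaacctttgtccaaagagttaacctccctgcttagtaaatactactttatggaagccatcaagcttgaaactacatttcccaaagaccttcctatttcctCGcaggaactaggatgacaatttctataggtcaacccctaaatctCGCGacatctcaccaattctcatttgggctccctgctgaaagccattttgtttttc
Cox7b2: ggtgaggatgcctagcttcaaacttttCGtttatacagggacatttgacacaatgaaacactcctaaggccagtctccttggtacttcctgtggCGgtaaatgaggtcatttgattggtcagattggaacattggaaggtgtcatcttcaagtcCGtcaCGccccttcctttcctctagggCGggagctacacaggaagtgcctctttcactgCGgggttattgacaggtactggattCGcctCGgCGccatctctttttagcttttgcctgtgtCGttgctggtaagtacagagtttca

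The pairs differed in opposite ways: the muscle isoform Cox8b had 2 CpG sites where Cox8a had 19, while the testis isoform Cox7b2 had 10 where Cox7b had 5. DNA methylation was not measured in these samples. Of the 95 members, 77 matched a window by symbol or synonym, and the isoforms Ndufa4l2, Cox6a2, Cox4i2 and Cox8c did not. The 63 windows of tested ubiquitous subunits had a median of 19 CpG sites (observed over expected ratio 0.823), against 20 (0.744) over the 13416 windows of tested genes. The core of the NRF1 motif, GCGCATGC on either strand, stood in 10 of the 63 windows (15.9%), against 2.71% of all 32851 windows and 5.01% of those of tested genes. NRF1 is a transcription factor known for nuclear genes of the respiratory chain. The motif stood in 4 of 18 windows of subunits called higher (22.2%), 3 of 17 called lower (17.6%) and 3 of 28 not called (10.7%). Windows with it included those of Cox6a1, Uqcr11, Uqcrc1, Sdhb and Atp5g2, which changed in both directions. The RefSeq start of Atp5g2 lies 1305 bases from the 5' end of its deposited gene model, and that of Atp5d 3643 bases. Some windows may therefore not hold the start used in these cells. The letters CCGGAAGT, read by ETS factors such as GABPA, stood in 5 of the 63 windows (7.94%, against 7.66% for tested genes), and the YY1 letters AAGATGGC in 9 (14.3%, against 4.23%). A match in the letters is not a measured binding site.

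Core and accessory subunits also differ in the length of their genes, with a median of 2180 and 1250 bases in the deposited models. Over the 76 ubiquitous subunits tested, the log2 fold change went down with gene length (Spearman rho -0.44, Pearson r -0.40 against log2 length), while over all 14246 genes tested rho was 0.06. These are descriptions across genes, which share their libraries and are not independent replicates. Split at the median length of 1710 bases, the 34 shorter accessory subunits had 16 higher and 4 lower calls, and the 19 longer ones 5 higher and 6 lower. Without induced replicate 2 the shorter accessory subunits had 23 higher and 1 lower calls, and the longer ones 7 higher and 5 lower. The 4 shorter core subunits had 2 lower calls and the 19 longer ones 9, with none higher in either group. In another fit, the trend of level with gene length over all genes was removed in each library separately. The core subunits then had 14 lower and 0 higher calls. The accessory subunits then had 20 higher and 13 lower, and rho over the subunits was -0.55. This step also moved the median of all genes tested, from -0.01 to -0.06. The shorter subunits stood at a median of 0.18, -0.12 and 0.24 on the log2 scale against the control mean in induced replicates 1, 2 and 3, and the longer ones at -0.05, -0.23 and -0.03.

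**Figure D5:**
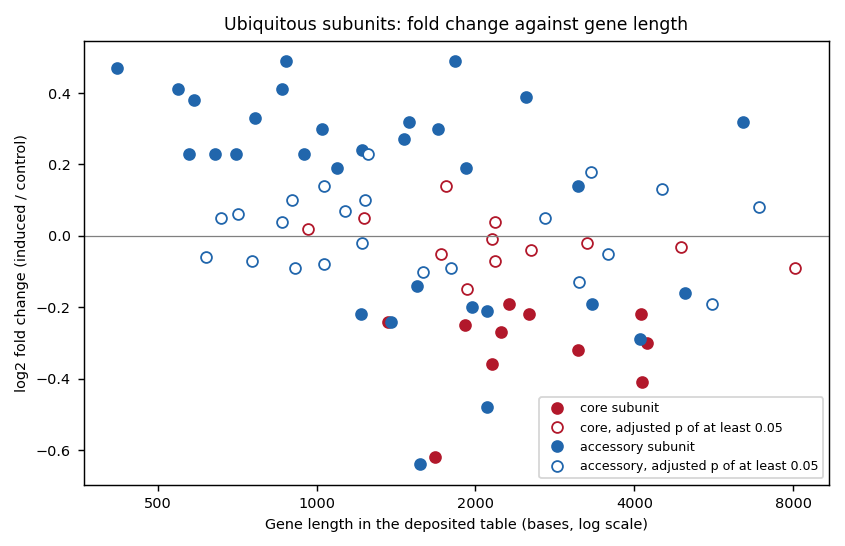
Each point is a ubiquitous subunit, with its gene length in bases on a logarithmic horizontal axis and its log2 fold change on the vertical axis, red for core and blue for accessory subunits and open where the adjusted p was at least 0.05. The core points reach no higher than 0.14, and the higher accessory points lie mostly at the left, among the shorter genes.

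The 13 protein genes of the mitochondrial genome, which encode the remaining subunits, took 1.47% to 1.54% of reads in control libraries and 1.46% to 1.62% in induced libraries. The nuclear subunits took 0.961% to 1.00% and 0.841% to 0.969%, with the lowest share in induced replicate 2.

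Genes that serve the pathway without being subunits were described with lists chosen by function. Their counts stand against the 32.6% higher and 32.2% lower (64.8% in all) over all genes tested. The share called was above that background in the citrate cycle list and below it in the other 4 lists. Of 45 assembly factors 42 were tested, and 9 were higher and 7 lower (median 0.01). Among them Acad9, a complex I assembly factor, fell from 8.56, 8.498 and 8.46 to 3.11, 3.42 and 3.23 FPKM (-1.39 ± 0.06, adjusted p = 2.1e-13), a larger decrease than that of any subunit. Sdhaf2, which attaches the flavin of Sdha, rose (0.35 ± 0.06), as did Tmem126b, another complex I assembly factor (0.61 ± 0.10). Of 20 regulators of mitochondrial biogenesis 18 were tested, with 3 higher and 8 lower (median -0.22). The mitochondrial RNA polymerase Polrmt (-0.61 ± 0.07), the coactivator Pprc1 (-0.34 ± 0.06) and Gabpa (-0.20 ± 0.06) fell, and the nuclear receptor Esrra rose from 20.8, 22.0 and 21.9 to 30.3, 26.7 and 27.6 FPKM (0.39 ± 0.06, adjusted p = 1.07e-05). Gabpb1 was higher (0.25 ± 0.08, adjusted p = 0.00861), unlike Gabpa, and Yy1 was lower (-0.14 ± 0.06, adjusted p = 0.0343). The exons of Gabpa overlap 12.7% of the bases of the subunit gene Atp5j. Ppargc1a, the best known coactivator of the pathway, stayed low (0.223 to 0.312 and 0.314 to 0.543 FPKM), and its rise (0.70 ± 0.25, adjusted p = 0.0223) was not called without induced replicate 2 (0.47, adjusted p = 0.146), without control replicate 1 (adjusted p = 0.0787) or without control replicate 2 (adjusted p = 0.0751). Nrf1 (-0.15 ± 0.07) and Tfam (0.08 ± 0.08) were not called.

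Of 20 genes of the mobile electron carriers and of enzymes that make or feed them 19 were tested, and 3 were higher and 6 lower (median -0.03). Coq10a (0.91 ± 0.07), Coq10b (1.12 ± 0.09) and Coq2 (0.46 ± 0.06), which bind or make coenzyme Q, rose. The genes of coenzyme Q synthesis Pdss1 (-0.96 ± 0.25), Coq4 (-0.76 ± 0.11), Coq7 (-0.44 ± 0.09), Coq6 (-0.39 ± 0.10) and Coq9 (-0.20 ± 0.07) fell, and Pdss2, Coq3, Coq5, Coq8a and Coq8b were not called. Dhodh (-0.55 ± 0.11) also fell, and Etfa, Etfb, Etfdh and Gpd2 were not called. Cytochrome c (Cycs, 0.03 ± 0.06) was not called, and Cyct, its testis form, was listed with 0 control reads and 2 induced reads. Of 20 citrate cycle and pyruvate dehydrogenase genes, which feed electrons to the chain, 4 were higher and 13 lower (median -0.18), among them Idh3g (-0.66 ± 0.06) and Fh1 (-0.46 ± 0.06) on the lower side and Ogdh (0.44 ± 0.05) on the higher. Of 22 genes of general mitochondrial content 3 were higher and 10 lower (median -0.09), with Phb2 (-0.76 ± 0.06), the phosphate carrier Slc25a3 (-0.42 ± 0.04) and the inner membrane protein Immt (-0.49 ± 0.06) falling. The test was on RNA, and the amount or activity of the complexes was not measured.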

How the data were processed

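RNA sequencing data of 6 iECDC samples were used. The authors deposited raw read counts per gene, whole numbers without normalization, and FPKM values computed from the same counts and gene lengths in the same table. Per the labels' processing notes, the submitters used HISAT2 2.0.5, featureCounts 1.5.0-p3 and DESeq2 1.16.1 with build mm10, whereas the methods name the DESeq package. Neither gives the strand setting, so reads of overlapping genes cannot be told apart. The table also holds the authors' fold changes and p-values, and other deposited tables hold their Gene Ontology results, none of which were used.

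Members were found by symbol, all 95 are in GENCODE M21, and 89 have its GRCm38 coordinates. Overlaps were taken from that annotation, and copies as transcripts of other genes with at least 97% identity over 100 bases (BLAST 2.17.0). Counts were tested in edgeR 4.0.16 (R 4.3.3) after filterByExpr (minimum count 10, minimum total 15) with TMM scaling and the two-sided quasi-likelihood test without a replicate block, over 14246 genes holding 99.9% of the reads (biological coefficient of variation 5.82%). Levels in the text are FPKM recomputed from TMM-scaled counts and the deposited gene lengths. Pooled ratios have exact binomial 95% intervals. The script was tested on simulated data.

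Genes named with their values were the 8 largest rises and 8 largest falls among called members with at least 10 CPM in the higher group, the core subunits, all tissue isoforms, and the 3 genes of each related list with the smallest p, with a few regulators and cytochrome c. Other members given with values were chosen after these were seen, and 1 member is in the counts but not reported by name here. The members, roles and lists were chosen with earlier results of these data known. Alternatives were DESeq2 1.42.0, median-ratio and total scaling, no filter, a stricter one (at least 1 CPM in 3 libraries with a mean count of 10), limma 3.58.1 on log2 FPKM with pseudocounts of 1 and 0.1, an adjusted p of 0.01, removal of the gene length trend (loess, span 0.4), a replicate block, leaving out each library, leaving out chromosome 15 and, added after the data were seen, leaving out members with at least 20% overlap or copies and the split by gene length. Same-numbered replicates did not deviate together (correlations of 0, -0.02 and 0.03).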

Additional observations from a re-analysis of the deposited data

How the results depend on the processing

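Over the alternatives, 38 to 54 members were called in place of 48, and the count of lower core subunits ran from 9 to 14 around 11. The ends of these ranges rest partly on other sets of members. The 38 came without the overlapping or copied members, 17 of them tested, and the 54 without the filter, with 93 tested. The 9 came without chromosome 15, which removes Cyc1 and Atp5g2, both called lower. The 14 came with the length trend removed. A core subunit was called higher under 2 alternatives, 1 (Atp5e) without the filter on low counts, and 0 to 1 when each library was left out. The accessory subunits called lower were 6 in place of 10 in limma on log2(FPKM + 1), 6 in limma on log2(FPKM + 0.1), 6 at an adjusted p of 0.01, and 6 to 10 when each library was left out (6 without control replicate 3 and without induced replicate 2). Accessory subunits called higher ran from 15 (without the overlapping or copied members) to 30 (without induced replicate 2). Of 839 values of 56 named genes under alternatives, 813 kept direction and side of the threshold, 21 lost and 5 gained significance, and 0 turned. Those that lost it were values of Cox4i1, Ndufa12, Ndufaf8 and Ppargc1a.

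Medians were small and several crossed 0: that of all members ran from -0.03 to 0.08, of complex III from -0.07 to 0.19, of ubiquitous complex IV from -0.13 to 0.06 and of complex V from -0.15 to 0.02. The core median of -0.15 was -0.23 with the length trend removed, -0.09 without chromosome 15 and -0.20 to -0.11 when each library was left out, and with library totals the accessory median was 0.06 and that of complex I 0.01. The complex II median of -0.12 was -0.16 with library totals, -0.17 with the length trend removed and -0.15 to -0.10 when each library was left out. The median of the assembly list was -0.01 to 0.07 when each library was left out. For the biogenesis list it was -0.28 in DESeq2, -0.26 with library totals, -0.27 without a filter, -0.17 in limma on log2(FPKM + 1), -0.29 with the length trend removed and -0.23 to -0.18 when each library was left out. For the electron carriers it was -0.11 with the length trend removed and -0.05 to 0.04 when each library was left out, and for the citrate cycle -0.21 both with library totals and with the trend removed. By read counts in place of FPKM, the change in share was 14.002 percentage points for Ndufa4l2, 2.78 for Atp5g1 and 6.57 for Atp5g3, since the genes differ in length. The causes of the other shifts were not tested.

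With the replicate number as a block, 49 members were called (25 higher, 24 lower). The replicate numbers are shared between the groups by name only, and the block moved no count of calls by over 1.5 times. The isoforms outside the test were limited by their few reads, and intervals cover counting error only.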
